A study of Homo sapiens with 8 samples.

Results

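Fatty acid synthesis and desaturation were followed through 10 genes, chosen by symbol from 55765 gene symbols in the deposited tables: ACLY, ACSS2, ACACA, FASN, ELOVL5, ELOVL6, SCD, FADS1, FADS2 and ACSL3. Each has a single row in every table, and all 10 were among the 14650 genes tested (those averaging 1 TPM or more over the libraries, TPM being abundance per transcript length scaled to the same total in each library). The 8 libraries came from total RNA of the human acute myeloid leukaemia lines NB4 (with the PML-RARA fusion) and Kasumi-1 (with the RUNX1-RUNX1T1 fusion). For both lines there was 1 untreated library, and chlorprothixene, a thioxanthene antipsychotic, was given at 40 uM for 6, 12 or 24 h before the other 3. All cultures grew in serum-containing medium, a vehicle or a time-matched untreated culture is not given in the sources used here, and drug and time in culture therefore cannot be told apart. No condition has a replicate, so values carry no spread between cultures.

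Fatty acids are built in the cytosol from acetyl-CoA, which ACLY makes from citrate and ACSS2 from acetate. ACACA carboxylates acetyl-CoA to malonyl-CoA, and FASN joins these units into palmitate. ELOVL6 and ELOVL5 belong to the enzymes that lengthen chains, SCD sets the first double bond of monounsaturated fatty acids, FADS2 and FADS1 are the delta-6 and delta-5 desaturases of polyunsaturated fatty acids, and ACSL3 couples long-chain fatty acids to CoA. Many of these genes are textbook targets of SREBP-1, a membrane-bound transcription factor released when sterols are low and also held under LXR control. Serum supplies ready-made fatty acids to cultured cells, and de novo synthesis runs beside that uptake in proliferating leukaemia cells.

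The myeloid markers MPO (1528 to 11406 TPM) and SPI1 (132 to 327 TPM) were abundant in all 8 libraries, though not constant. ELANE was not shared by the lines, at 0.759 TPM at most in NB4 and up to 1495 TPM in Kasumi-1. In NB4, MPO was at 4889 TPM untreated and 1528 TPM at 24 h, and PRTN3, another granule gene, at 1002 and 140 TPM. In Kasumi-1 PRTN3 was at 5971 and 1771 TPM, but MPO at 9908 and 9340 TPM. AZU1, also a granule gene, went from 262 to 138 TPM by 24 h in NB4. It moved the other way in Kasumi-1, from 1460 to 1883 TPM, and peaked with 2840 TPM after 6 h. Kasumi-1 ELANE peaked after 6 h too, but went from 630 to 416 TPM by 24 h. Some markers were higher at 24 h than untreated in both lines. SPI1 was at 222 and 313 TPM in NB4 and at 132 and 180 TPM in Kasumi-1. LYZ was at 51.9 and 66.7 TPM in NB4 and at 25.5 and 142 TPM in Kasumi-1. CD33 was lower in both lines by 24 h, slightly in NB4 (from 61.5 to 60.2 TPM) and more in Kasumi-1 (from 48.5 to 26.0 TPM). RUNX1T1, KIT and CD34 summed to at most 0.340 TPM in NB4. In Kasumi-1 they summed to 654 TPM untreated and 172, 210 and 331 TPM with the drug. RUNX1T1 itself was there at 92.5 TPM untreated and at 80.9, 58.0 and 81.7 TPM with the drug. KIT was at 450 TPM and then 72.5, 115 and 192 TPM, and CD34 at 112 TPM and then 18.3, 36.5 and 57.5 TPM. The part of these marker differences in the results for the 10 genes was not tested. Of cells that make or store much fat, the defining markers were near 0: ADIPOQ and FABP4 were listed at 0 TPM in every library, PLIN1 did not exceed 0.0332 TPM, and ALB did not exceed 0.510 TPM, while LPL reached 46.0 TPM in NB4. The median of all genes tested differed from untreated by -0.08 to 0.01 on the log2 scale. Mitochondrially encoded genes took 5.04% to 6.71% of the TPM in NB4, 7.94% to 10.6% in Kasumi-1 untreated and at 6 and 12 h, and 17.1% in Kasumi-1 at 24 h. What this share contributed to the lower Kasumi-1 values at 24 h was not tested beyond the rescaled values given with them.

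To show what lies before these genes, stretches upstream of RefSeq gene starts (GRCh38.p14, a different build from the hg19 of the deposited coordinates) are given for SCD, ACSS2 and FADS1, which stood higher in at least 5 of 6 treated libraries, and for ELOVL6, whose changes had opposite signs in the lines. They run 5′ to 3′ on the gene's strand, stop where GENCODE 29 annotates a UTR, and capitals mark CCAAT boxes (CCAAT, bound by NF-Y, or ATTGG on the other strand) and GC boxes (GGGCGG or CCGCCC, bound by SP1), both known partners of SREBP at promoters. The SCD stretch is chr10:100346983-100347123 (plus strand), that of ACSS2 chr20:34874739-34874988 (plus strand), that of FADS1 chr11:61817163-61817253 (minus strand) and that of ELOVL6 chr4:110198677-110198865 (minus strand).
SCD: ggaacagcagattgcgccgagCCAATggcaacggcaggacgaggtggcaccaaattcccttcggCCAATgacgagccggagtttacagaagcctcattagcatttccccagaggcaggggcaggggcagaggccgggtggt
ACSS2: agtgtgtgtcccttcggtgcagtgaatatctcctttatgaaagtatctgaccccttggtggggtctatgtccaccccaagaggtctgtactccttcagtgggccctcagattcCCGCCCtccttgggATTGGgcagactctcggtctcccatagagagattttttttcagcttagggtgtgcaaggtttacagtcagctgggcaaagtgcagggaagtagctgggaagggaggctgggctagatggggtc
FADS1: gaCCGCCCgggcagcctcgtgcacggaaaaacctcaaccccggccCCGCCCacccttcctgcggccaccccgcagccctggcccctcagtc
ELOVL6: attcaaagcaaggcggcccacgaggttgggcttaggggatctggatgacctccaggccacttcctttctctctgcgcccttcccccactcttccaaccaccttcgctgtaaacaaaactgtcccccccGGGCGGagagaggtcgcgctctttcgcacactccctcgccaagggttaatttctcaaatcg

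The SCD stretch holds 2 CCAAT boxes, at 229 to 225 and at 186 to 182 bases before the gene start, the FADS1 stretch 2 GC boxes, the ACSS2 stretch 1 of each and the ELOVL6 stretch 1 GC box. ACSS2 has another RefSeq start, at 34876612, which is not shown. Its stretch of 73 bases holds 0 CCAAT boxes and 0 GC boxes, and its whole window of 250 bases 0 and 3. Over whole windows of 250 bases, 9 of the 10 genes had an entry in the RefSeq table (14 windows, since some genes have several starts), and FASN did not. A CCAAT box lay in 8 of these 14 windows (6 of the 9 genes), against 32.0% of all 35114 windows. A GC box lay in 11 of the 14 (8 of the 9 genes), against 42.6%. Of the other motifs searched on both strands, CACGTG was found for ELOVL5 (6.35% of all windows) and TCACNCCAC, the core of a sterol regulatory element, for 0 of the 9 (0.883% of all windows). Genes with several starts had more than 1 chance of a match. A match describes the letters only, and a missing one says only that these letters are not in these windows.

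In NB4, 9 of the 10 genes (all but ACACA) stood above untreated at all 3 times, as did 30.6% of all genes tested. In Kasumi-1, 4 did, ACSS2, FASN, FADS1 and FADS2, with 28.2% of all genes. These 4 were therefore higher in all 6 treated libraries. Over all genes tested, 12.9% stood above untreated in all 6 treated libraries. In such bulk RNA, fewer cells of a kind and less RNA per cell cannot be told apart. ACLY, ACACA and ACSL3 lay between 0.695 and 1.53 times untreated in all 6, SCD was at least 2-fold higher at 6 h in both lines, and ELOVL5 and ELOVL6 stood higher at all 3 times in NB4 but at 1 and 0 times in Kasumi-1. The 6 NB4 and Kasumi-1 differences of each gene are on the map of changes.

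**Figure D1:**
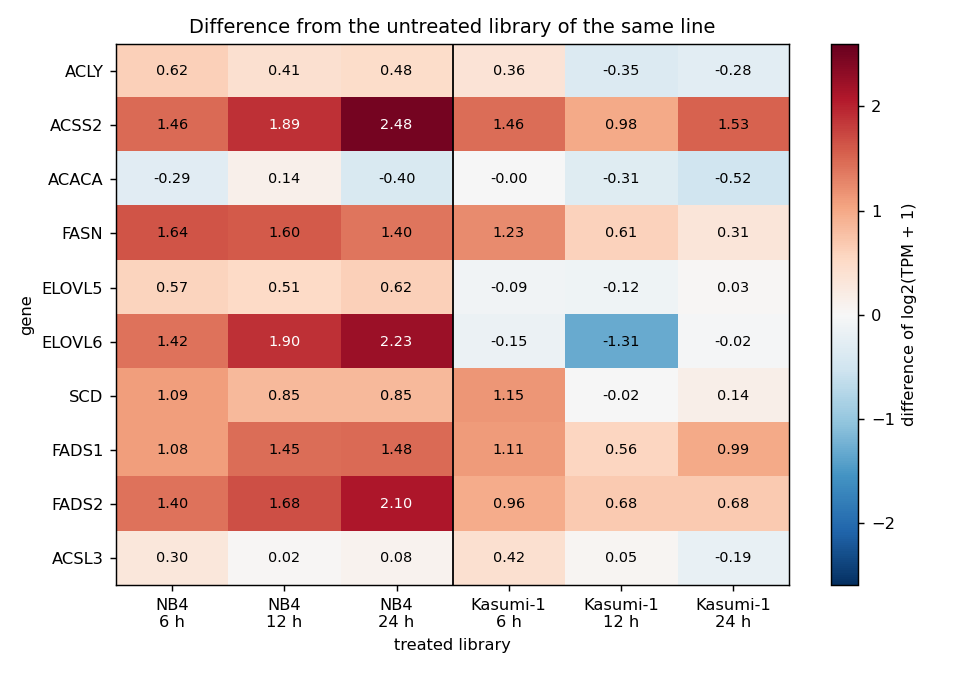
Difference of log2(TPM + 1) between each treated library (columns) and the untreated library of its line, for the 10 genes (rows), 1 library per condition. ACSS2, FASN, FADS1 and FADS2 are above 0 in all 6 columns, and ELOVL6 reaches 2.23 in NB4 and -1.31 in Kasumi-1.

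Among the suppliers of acetyl-CoA, ACSS2 (chromosome 20, 33459949 to 33515769, hg19) stood at 17.7 TPM in untreated NB4 and at 50.5, 68.3 and 103.5 TPM after 6, 12 and 24 h. Its Kasumi-1 level was 18.2 TPM untreated and 51.8, 36.9 and 54.3 TPM. The lines thus began at nearly the same level and reached nearly the same level at 6 h, after which NB4 went on upward, to 5.86 times untreated, and Kasumi-1 stayed between 2.03 and 2.98 times. ACLY (chromosome 17, 40023161 to 40086795) stood at 264 TPM in untreated NB4 and at 405, 351 and 367 TPM with the drug. The Kasumi-1 libraries held 293 TPM untreated and 378, 230.5 and 242 TPM, above untreated at 6 h and below at 12 and 24 h. The ratio of ACLY to ACSS2 in TPM went from 14.9 to 3.55 in NB4 and from 16.1 to 4.45 in Kasumi-1 at 24 h. GGT7, on the opposite strand, shares 715 bases with the ACSS2 span and had 1.72 TPM untreated and 10.1 TPM at 24 h in NB4, with 12.9 and 26.3 TPM at these points in Kasumi-1. Strand-specific preparation is not given in the sources used here, so reads from such shared bases cannot be told apart.

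The 2 enzymes that build the chain parted. FASN (chromosome 17, 80036214 to 80056208) stood at 235 TPM in untreated NB4 and at 737, 715 and 620.2 TPM after 6, 12 and 24 h. The level in Kasumi-1 was 343 TPM untreated and 809, 523 and 426 TPM. Both lines were highest at 6 h, and the level then stayed at 2.64 times untreated in NB4 at 24 h and at 1.24 times in Kasumi-1. ACACA (chromosome 17, 35441923 to 35766909), whose enzyme catalyses the committed step, stood at 81.8 TPM in untreated NB4 and at 66.8, 90.0 and 61.7 TPM with the drug. Kasumi-1 held it at 80.7 TPM untreated and at 80.7, 64.9 and 56.1 TPM. Only NB4 at 12 h was above untreated, so ACACA was lower in 5 of 6 treated libraries (by under 0.01 on the log2 scale in Kasumi-1 at 6 h), as 28.6% of all genes tested were in at least 5. The ratio of FASN to ACACA in TPM was 2.87 in untreated NB4 and 11.0, 7.94 and 10.1 with the drug, and 4.25 in untreated Kasumi-1 and 10.0, 8.05 and 7.60 with it.

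Of the elongases, ELOVL6 (chromosome 4, 110967002 to 111120355), which extends palmitate to stearate, separated the lines most. It stood at 19.6 TPM in untreated NB4 and at 54.0, 76.0 and 95.5 TPM after 6, 12 and 24 h. Its Kasumi-1 level was 6.55 TPM untreated and 5.80, 2.06 and 6.44 TPM. The NB4 libraries climbed to 4.87 times untreated, whereas no treated Kasumi-1 library was above its untreated one, and at 24 h NB4 was 14.8 times Kasumi-1. Kasumi-1 at 12 h was the lowest of all 8, with a deposited coverage of 3.70, against 134 at most. The deposited coverage of ACSS2 ran from 3.84 to 21.6 over the 8 libraries. Its ratio to FPKM (a value per length and library size) was 0.41 to 0.69, against 3.10 to 4.65 for ELOVL6. Coverage therefore cannot be compared between these genes, and the reason for the differing ratios was not tested. ELOVL5 (chromosome 6, 53132196 to 53213947), which extends polyunsaturated chains, stood at 74.0 TPM in untreated NB4 and at 111, 106 and 114 TPM with the drug. The Kasumi-1 libraries held 166 TPM untreated and 155, 153 and 169.8 TPM, so that treated NB4 stayed below every Kasumi-1 library.

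The desaturases were the most abundant group. SCD (chromosome 10, 102106881 to 102124591) stood at 499.5 TPM in untreated NB4 and at 1063, 903 and 903 TPM with the drug. The level in Kasumi-1 was 236 TPM untreated and 525, 232 and 260.4 TPM. The 6 h libraries were 2.13 and 2.23 times untreated, close in both lines, and Kasumi-1 was back at 0.986 times untreated at 12 h while NB4 held at 1.81 times. FADS2 (chromosome 11, 61560452 to 61634826) stood at 305 TPM in untreated NB4 and at 807, 982 and 1307 TPM, and at 299.8 TPM in untreated Kasumi-1 and at 584, 480.0 and 479.8 TPM. It began at the same level in both lines, and only NB4 went on upward after 6 h. FADS1 (chromosome 11, 61567099 to 61596790) stood at 27.0 TPM in untreated NB4 and at 58.1, 75.4 and 77.2 TPM, and at 95.5 TPM in untreated Kasumi-1 and at 207, 142 and 191 TPM. Of these 3 desaturases it was the one higher in Kasumi-1 than in NB4, and the ranges of the lines did not overlap.

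The spans of FADS1 and FADS2 overlap over 29692 bases on opposite strands, and the FADS2 span also covers 4265 bases of FEN1, a replication nuclease gene on its own strand. How the reads of this locus were split between them is uncertain. FEN1 had 150.1 TPM untreated and 235 TPM at 24 h in NB4, with 133 and 69.7 TPM at these points in Kasumi-1, so in Kasumi-1 it was below untreated where FADS2 was above. Taken as 1 gene, FADS1 and FADS2 summed to 332, 865, 1057 and 1385 TPM in NB4 and to 395, 790.4, 622 and 671 TPM in Kasumi-1 (untreated, 6, 12 and 24 h). ACSL3 (chromosome 2, 223725652 to 223809357), the acyl-CoA synthetase of lipid droplets, stood at 77.8 TPM in untreated NB4 and at 95.7, 79.0 and 82.4 TPM with the drug. Kasumi-1 held it at 44.3 TPM untreated and at 59.5, 45.9 and 38.7 TPM, highest at 6 h in both lines.

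**Figure D2:**
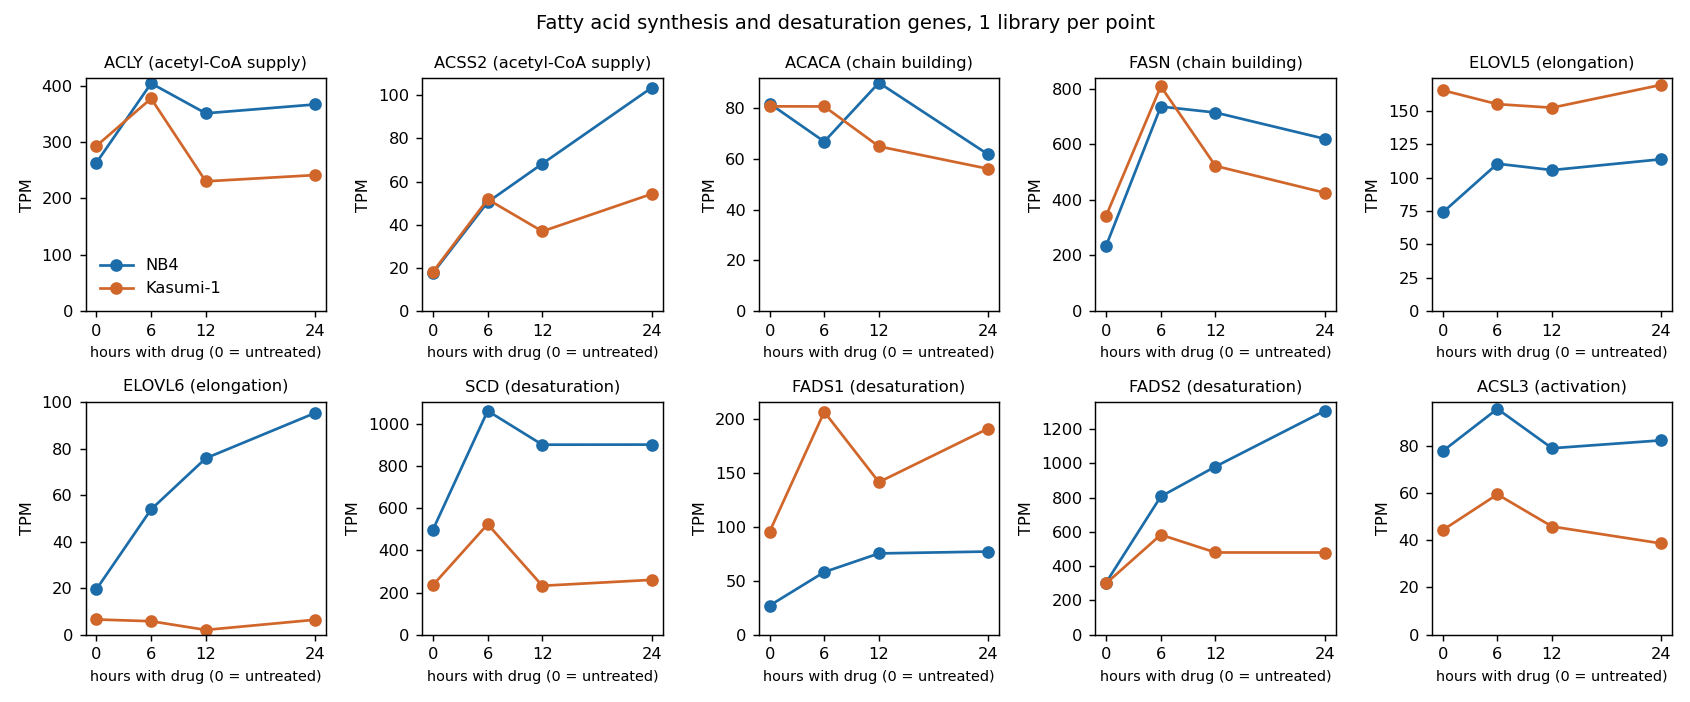
TPM (vertical axis, linear from 0) against hours with chlorprothixene (0 is untreated) for each of the 10 genes, blue for NB4 and orange for Kasumi-1, 1 library per point. ACSS2, ELOVL6 and FADS2 climb to 24 h in NB4, and FASN, SCD and ACLY are highest at 6 h in both lines.

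Added up, the 10 genes made 1601 TPM in untreated NB4 and 1583 TPM in untreated Kasumi-1, nearly the same. NB4 reached 3447, 3445 and 3732 TPM, or 2.15, 2.15 and 2.33 times untreated. Kasumi-1 reached 2855, 1909 and 1924 TPM, or 1.80, 1.21 and 1.22 times. The desaturases SCD, FADS1 and FADS2 took 51.9% of the NB4 sum untreated and 61.3% at 24 h, and 39.9% and 48.4% of the Kasumi-1 sum. Within NB4 the leading gene passed from SCD (31.2% untreated) to FADS2 (35.0% at 24 h), and in Kasumi-1 from FASN (21.7% untreated) to FADS2 (24.9% at 24 h). At the other end, ACSS2 was the lowest of the 10 in untreated NB4 and at 6 and 12 h and ACACA at 24 h, and ELOVL6 was the lowest in every Kasumi-1 library.

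**Figure D3:**
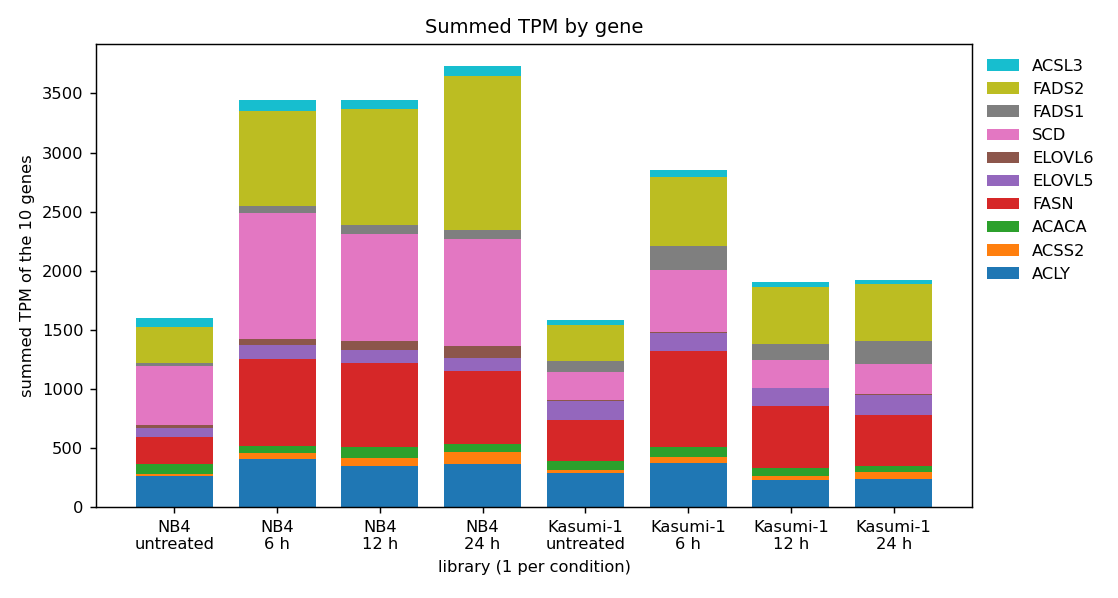
Summed TPM of the 10 genes (vertical axis, linear from 0) in each of the 8 libraries, 1 per condition, with 1 colour per gene. The NB4 bars stay at 3445 to 3732 TPM from 6 to 24 h, and the Kasumi-1 bar of 2855 TPM at 6 h is followed by 1909 and 1924 TPM.

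In counts, 6, 5 and 5 of the 10 genes were at least 2-fold higher (1 or more on the log2(TPM + 1) scale) in NB4 at 6, 12 and 24 h, where 3.06%, 5.60% and 6.51% of all genes tested were. In Kasumi-1 the counts were 4, 0 and 1, with 6.44%, 4.85% and 5.11% of all genes. At all 3 times, 5 of the 10 (ACSS2, FASN, ELOVL6, FADS1 and FADS2) were at least 2-fold higher on this scale in NB4 and 0 in Kasumi-1, against 2.03% and 1.88% of all genes. The Kasumi-1 count became 1 with a pseudocount of 0.1, without mitochondrial and the most abundant genes, or with median centring, and in plain TPM ACSS2 was at least 2.03 times untreated at all 3 times there. The only gene at least 2-fold lower in any library was ELOVL6 in Kasumi-1 at 12 h, where 3.52% of all genes were. ACSS2 in Kasumi-1 at 12 h lay just under that limit (0.98) and FADS1 at 24 h likewise (0.99), and both counts went up by 1 gene once mitochondrial and the most abundant genes were left out of the TPM. The 3 differences of a line share its untreated library. The NB4 median over the 10 was 1.08, 1.15 and 1.12, that of Kasumi-1 0.69, 0.01 and 0.09.

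A limma model with cell line and time as additive terms asked how alike the lines moved, taking untreated from the average over 6, 12 and 24 h, and its p-values do not measure the spread of cultures. Of the 10 genes, 0 passed at an adjusted p under 0.05 (0.0273% of all genes were called higher and 0% lower), and 5 were higher at an unadjusted p under 0.05, with 9.30% of all genes. For ACSS2 the mean change on the log2 scale was 1.63 (SE 0.24, limma adjusted p = 0.0742), with 6 of 6 treated libraries higher. For FADS1 the change was 1.11 (SE 0.20, limma adjusted p = 0.0815), for FASN 1.13 (SE 0.23, limma adjusted p = 0.0904) and for FADS2 1.25 (SE 0.27, limma adjusted p = 0.10), each higher in 6 of 6. SCD had 0.68 (SE 0.22, limma adjusted p = 0.162) and was higher in 5 of 6. Leaving out an untreated library gives no separate check, since the contrast then becomes the response of the other line. Without untreated NB4 it was the Kasumi-1 response (0.72 for FASN, 0.77 for FADS2 and 0.42 for SCD). Without untreated Kasumi-1 it was the NB4 response (1.55, 1.73 and 0.93). The mean of ELOVL6 was also 0.68, but with an SE of 0.53 (limma adjusted p = 0.500). It joins 1.85 in NB4 and -0.49 in Kasumi-1. The means of ACLY, ELOVL5, ACSL3 and ACACA lay between -0.23 and 0.25. When the times within each line were taken as repeats, ACSS2 and FADS1 passed (limma adjusted p = 0.0403 for each).

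Within a line, the 3 treated times, taken as repeats, were set against the untreated library. The p-values of this model draw on the spread among treated times, pooled over both lines, so a Kasumi-1 library bears on the NB4 calls too. They do not measure the spread of cultures or that of the single untreated library. FADS2 rose in NB4 by 1.73 (SE 0.27, limma adjusted p = 0.0411) and was the 1 gene of the 10 called, with 0.621% of all genes called higher and 0.177% lower in NB4. FADS1 and FADS2 summed gave 1.70 (limma adjusted p = 0.0428). The call for FADS2 was lost without NB4 at 12 h (limma adjusted p = 0.153), NB4 at 24 h (0.0641) or any treated Kasumi-1 library (0.0595, 0.117 and 0.0630 without 6, 12 and 24 h; FASN passed without 6 h, at 0.0325), with no filter on low values (0.0762) and without the intensity trend (0.0632). In NB4, 6 of the 10 were higher at an unadjusted p under 0.05 (8.30% of all genes): ACSS2, FASN, ELOVL5, ELOVL6, FADS1 and FADS2. In Kasumi-1, 0 of the 10 passed (0.205% of all genes were called higher and 0.109% lower), and ACSS2, FADS1 and FADS2 were higher at an unadjusted p under 0.05 (8.18% of all genes), with log2 changes of 1.32 (SE 0.38), 0.89 (SE 0.25) and 0.77 (SE 0.27).

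The difference between the responses of the lines was tested as an interaction in the same model. Of the 10 genes, 0 passed in limma (0.0410% of all genes were called with a higher Kasumi-1 response and 0.0887% with a lower one), and 3 had a lower Kasumi-1 response at an unadjusted p under 0.05, with 6.37% of all genes. These were ELOVL6 (-2.34, SE 0.72, limma adjusted p = 0.355), ELOVL5 (-0.63, SE 0.21, limma adjusted p = 0.377) and FADS2 (-0.96, SE 0.38, limma adjusted p = 0.433). At every one of the 3 matched times, 6 of the 10 had a larger change in NB4 than in Kasumi-1, as did 33.5% of all genes. From 6 to 24 h the level went up for 5 of the 10 in NB4 (48.3% of all genes) and for 3 in Kasumi-1 (43.7%). The test of that late change over both lines called 0 of the 10 and 0% of all genes in limma, with ACSL3 lower at an unadjusted p under 0.05, as were 3.82% of all genes (-0.41, SE 0.16, limma adjusted p = 0.628). In Kasumi-1, SCD at 24 h was 0.496 times its 6 h level and FASN 0.526 times, and in NB4 they were 0.849 and 0.842 times.

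Levels differed between the lines over the 4 times for 6 of the 10 genes in the additive model, where 27.8% of all genes were called higher in Kasumi-1 and 27.5% lower. FADS1 was higher in Kasumi-1 by 1.45 on the log2 scale (SE 0.17, limma adjusted p = 4.99e-04) and ELOVL5 by 0.68 (SE 0.14, limma adjusted p = 0.00590). ELOVL6 was lower in Kasumi-1 with -3.20 (SE 0.46, limma adjusted p = 0.00115), SCD with -1.46 (SE 0.19, limma adjusted p = 6.79e-04), ACSL3 with -0.83 (SE 0.12, limma adjusted p = 9.58e-04) and FADS2 with -0.74 (SE 0.23, limma adjusted p = 0.0299). The FADS2 call rests on treated libraries, since the untreated levels were nearly equal. It was lost without any 1 of the 6 treated libraries (limma adjusted p = 0.0508 to 0.114). Leaving out either library of a time gave the same estimate (-0.83, -0.64 and -0.51 without 6, 12 and 24 h), so each pair is 1 check. The call was lost as well for FADS1 and FADS2 summed (-0.42, limma adjusted p = 0.145) and with no filter on low values (limma adjusted p = 0.0873). For ACLY, ACSS2, ACACA and FASN the difference did not pass (-0.43 to -0.08). ACLY passed without either untreated library (limma adjusted p = 0.0455 and 0.0452), again 1 check with the same estimate of -0.44. With more than 1 in every 4 genes called in each direction, the count for the 10 is near the background.

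How closely the 10 followed each other was described by Pearson's r over the 8 libraries after centring each line on its own mean, where libraries of a line are not independent and the untreated one weighs on every r. ACSS2 and FADS1 had r = 0.98, ACSS2 and FADS2 r = 0.97, and FADS1 and FADS2, whose reads may be shared, r = 0.95. Against the mean of the other 9 genes, FADS2 and FADS1 each had r = 0.92, FASN 0.90, ACSL3 0.41 and ACACA -0.23. Of 10940 other genes averaging 5 TPM or more, the 5 most like the mean of the 10 were a gene listed only by a clone name (r = 0.998), ZFYVE21 (0.989), INSIG1 (0.988), PIP5K1C (0.988) and DAG1 (0.986). INSIG1, whose protein retains the SREBP escort in the endoplasmic reticulum, had 63.9 TPM in untreated NB4, against 501, 506 and 556 TPM with the drug, and 94.9 TPM in untreated Kasumi-1, against 312, 129 and 194 TPM. DAG1, which encodes dystroglycan, had 2.41 TPM in untreated NB4, against 27.4, 27.2 and 26.1 TPM with the drug, and 11.3 TPM in untreated Kasumi-1, against 52.5, 13.1 and 20.7 TPM, again highest at 6 h in that line.

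Of 26 further genes of synthesis, elongation, desaturation and activation, 23 were tested, and their median change lay between -0.33 and 0.01 in the 6 treated libraries. In the shared limma test 0 passed, and an unadjusted p under 0.05 was met by 5 higher and 5 lower genes (9.30% and 11.1% of all genes). In the test of the NB4 response, which sets 1 untreated library against 3 times with the spread pooled over both lines, ME1 rose. That test called 0.621% of all genes higher. ME1, the cytosolic malic enzyme that supplies NADPH, had 15.8 TPM in untreated NB4, against 59.4, 75.8 and 62.5 TPM with the drug, and 2.24 TPM in untreated Kasumi-1, against 3.49, 3.78 and 4.78 TPM. Its NB4 change was 1.99 (SE 0.24, limma adjusted p = 0.0166), a call lost in 3 of 15 alternatives, leaving out the 12 h (0.0916) or 24 h (0.0598) library of NB4 or the 12 h one of Kasumi-1 (0.0572), and the test of the line difference in response gave -1.37 (SE 0.34, limma adjusted p = 0.279).

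Of 13 SREBP and LXR regulators, 12 were tested, and 0 passed the shared limma test (an unadjusted p under 0.05 was met by 4, all higher, with 9.30% of all genes higher at that level). INSIG1 rose in NB4, by 3.01 (SE 0.40, limma adjusted p = 0.0224), where 0.621% of all genes were called higher. That call was lost in 4 of 15 alternatives, leaving out the 12 h (0.0960) or 24 h (0.0862) library of NB4 or the 24 h one of Kasumi-1 (0.0512), and with no filter on low values (0.0623). The genes that follow were named outside the rule, with their values seen. SREBF2, the gene of SREBP-2, was higher in 6 of 6 treated libraries (shared change 0.48, SE 0.14, limma adjusted p = 0.139). So was INSIG2, which acts like INSIG1 (1.02, SE 0.18, limma adjusted p = 0.0815), and so were 12.9% of all genes tested. In the same list INSIG1, NR1H3 and USF2 were also higher in all 6. SCAP and MBTPS2 were lower in all 6, SCAP by only -1.16e-04 on the log2 scale in NB4 at 24 h. Over all genes tested, 28.6% were lower in at least 5 of 6, and the share lower in all 6 is not given here. SREBF1, the gene of SREBP-1, had 101 TPM in untreated NB4, against 63.5, 59.4 and 80.8 TPM with the drug, and 73.3 TPM in untreated Kasumi-1, against 98.2, 65.7 and 45.7 TPM, so 5 of 6 treated libraries were below untreated, as at least 5 were for 28.6% of all genes.

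Of 19 genes of glycerolipid assembly and storage, 17 were tested, 0 passed the shared limma test (an unadjusted p under 0.05 was met by 5, all higher, with 9.30% of all genes), and LPIN1 passed in NB4, where 0.621% of all genes were called higher. LPIN1, a phosphatidate phosphatase, had 14.2 TPM in untreated NB4, against 41.8, 47.4 and 44.3 TPM with the drug, and 24.9 TPM in untreated Kasumi-1, against 31.4, 20.0 and 30.5 TPM. Its NB4 change was 1.58 (SE 0.26, limma adjusted p = 0.0492), and the call was lost in 8 of 15 alternatives. These left out any NB4 treated library (0.0709, 0.188 and 0.130 without 6, 12 and 24 h) or the Kasumi-1 library of 6 or 24 h (0.0635 and 0.0681), applied no filter on low values (0.0773), used no intensity trend (0.0662) or left out mitochondrial and the most abundant genes (0.0607).

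Genes of fatty acid oxidation had a median below 0 in every treated library, between -0.39 and -0.14. Of 22, 19 were tested, 0 passed the shared limma test, and at an unadjusted p under 0.05 there were 9 lower and 2 higher, with 11.1% of all genes lower at that level. CPT2, which frees acyl-CoA inside mitochondria, had 30.8 TPM in untreated NB4, against 16.4, 15.2 and 14.5 TPM with the drug, and 40.9 TPM in untreated Kasumi-1, against 14.2, 18.0 and 21.3 TPM (shared change -1.06, SE 0.18, limma adjusted p = 0.0799, and 0.0403 when times within a line were repeats). HADHB, a subunit of the trifunctional protein, had 282 TPM in untreated NB4, against 169, 127 and 129.9 TPM with the drug, and 147 TPM in untreated Kasumi-1, against 97.8, 94.3 and 112 TPM. ACADS, the short-chain acyl-CoA dehydrogenase, had a shared change of -0.90 (SE 0.16, limma adjusted p = 0.0801), and PPARD, a nuclear receptor for fatty acids, one of 1.07 (SE 0.28, limma adjusted p = 0.122).

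**Figure D4:**
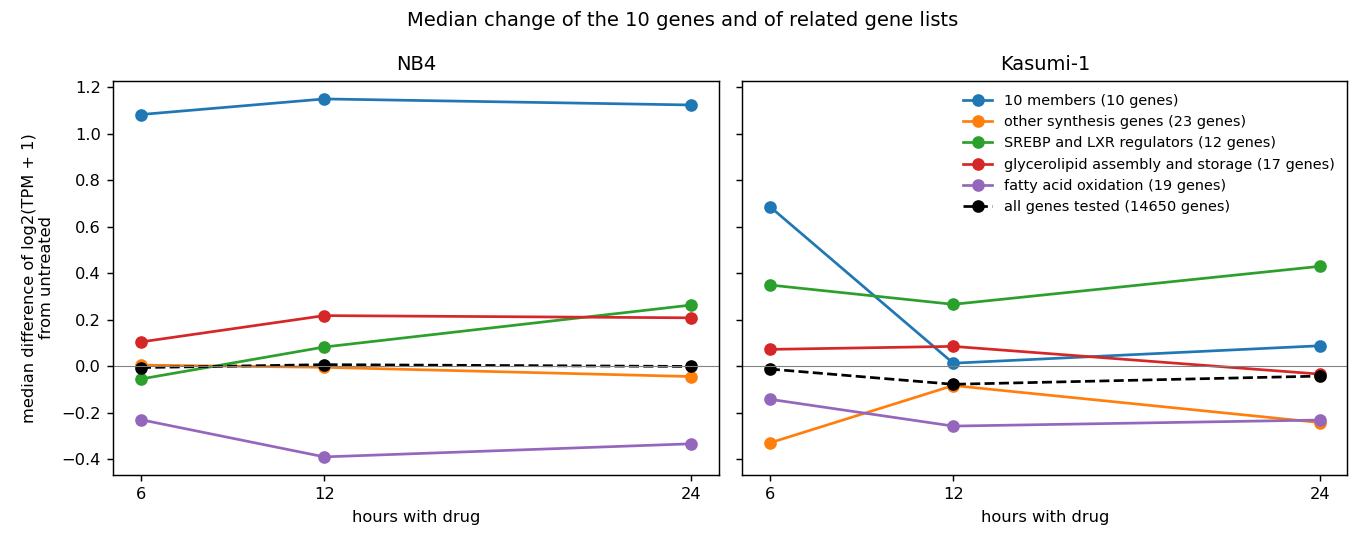
Median difference of log2(TPM + 1) from untreated (vertical axis) at 6, 12 and 24 h in NB4 (left) and Kasumi-1 (right) for the 10 genes, 4 related lists and all 14650 genes tested (dashed). The 10 genes stay at 1.08 to 1.15 in NB4 and go from 0.69 to 0.01 and 0.09 in Kasumi-1, and the oxidation list lies below 0 throughout.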

How the data were processed

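Total RNA of 8 libraries was sequenced, 1 per line and time. Per the labels' protocols, RNA was column-purified and DNase-treated before preparation with a TruSeq RNA kit from Illumina. The submitters' processing notes name HISAT2, StringTie and hg19, and the sources used here give no versions, options or annotation. The deposited TPM values are scaled to 1 total in every library, and are named so in the file headers. The deposited FPKM values are per length and library size, also named so in the file headers. The deposited coverage signal is named only as coverage there, and its calculation is not given in the sources used here. Read counts per gene are not given in the files, so the depth behind a TPM value is not known. Coverage ran from 3.70 to 3859 for the members. Its ratio to FPKM was 0.41 to 0.69 for ACSS2 and 0.67 to 0.83 for FADS2, against 7.08 to 9.83 for SCD. Coverage therefore cannot stand for that depth across genes.

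Rows with 1 symbol were summed (301 symbols). Tests used limma 3.58.1 in R 4.3.3 on log2(TPM + 1), which understates folds of low genes, for genes averaging 1 TPM or more, with eBayes and an intensity trend, two-sided, Benjamini-Hochberg over all genes and a threshold of 0.05. The additive model (line and time) has 3 residual degrees of freedom, and the model that takes times within a line as repeats has 4. Scripts were tested on simulated data. Other steps used Python 3.11.15 with numpy 2.4.6, pandas 2.3.3 and matplotlib 3.10.9. Samples were grouped by their titles. Named genes were the 10 members, up to 4 genes per related list (those called in the shared, NB4, Kasumi-1 or response difference test, line difference calls not counted, otherwise those with the largest mean absolute change), and the 5 of most similar pattern. The members and lists were chosen with earlier results of these data known. Promoter windows came from RefSeq (GRCh38.p14). Alternatives were the pseudocount, the filter, FPKM, 2 scalings, the largest row per symbol, the variance trend, the model, each library left out, and FADS1 and FADS2 summed, the last chosen after seeing the data.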

Additional observations from a re-analysis of the deposited data

Results flagged for a closer look

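ELOVL6 was lower than untreated at all 3 times in Kasumi-1 and higher at all 3 in NB4, the 1 gene of the 10 whose changes had opposite signs throughout. The difference between the responses was -2.34 (SE 0.72), and its test did not pass (limma adjusted p = 0.355). In Kasumi-1 the changes at 6 and 24 h were small (-0.15 and -0.02), so the opposite signs rest mainly on the 12 h library.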

How the results depend on the processing

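The number of the 10 genes called higher in the shared response (0) became 2 when times within each line were repeats. The number called higher in NB4 (1) became 0 with no filter on low values and 0 without the intensity trend, and lay between 0 and 2 over the fits that left out 1 library. In Kasumi-1 the number at least 2-fold higher at 12 h (0) became 1 with a pseudocount of 0.1, without mitochondrial and the 10 most abundant genes, and with median centring. At 24 h it (1) became 2 under these and with FPKM, and the number at least 2-fold higher at all 3 times (0) became 1 under the same 3 settings as at 12 h. Every sign change concerned a value that did not pass its test. Without mitochondrial and the most abundant genes, the line difference was 0.0050 for ACACA and 0.016 for FASN, the Kasumi-1 response of ELOVL5 0.0060 and the response difference of ACSL3 0.025, which was 0.014 with FPKM and 0.034 with median centring. The other sign changes came from leaving out 1 library. The shared response then ran from -0.088 to 0.50 for ACLY, -0.059 to 0.57 for ELOVL5 and -0.49 to 1.85 for ELOVL6. It was lowest without untreated NB4 and highest without untreated Kasumi-1. Those ends are the Kasumi-1 and the NB4 response themselves, since untreated then rests on the other line. The late change ran from -0.046 to 0.22 for ELOVL5, -0.097 to 0.39 for FADS1 and -0.26 to 0.68 for FADS2. The line difference ran from -0.21 to 0.038 for ACACA and -0.29 to 0.076 for FASN. The Kasumi-1 response ran from -0.31 to 0.042 for ACLY and -0.072 to 0.23 for ACSL3. The response difference ran from -0.23 to 0.069 for ACACA and -0.21 to 0.099 for ACSL3. A response within a line has no value without its untreated library. Replicates could not be paired, since each condition has 1 library. Libraries were matched only by line and time, as terms of the additive model. The causes were not tested.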
